A study of Mus musculus with 12 samples.

Results

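Interferon-stimulated genes are the genes that cells transcribe when an interferon, a cytokine of antiviral and antimicrobial defence, binds its receptor. The set described here holds 9 of them, taken by gene symbol: the effectors Ifit1 and Ifit3, the protein modifier Isg15 and its protease Usp18, the transcription factors Irf7, Irf1 and Stat2, and the GTPases Igtp and Irgm1. All 9 had a row among the 13267 genes of the liver table, and all 9 were among the 12720 genes that were high enough to be tested.

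The 12 liver samples came from C57BL/6 mice in which a high-fat diet had induced obesity and fatty liver (steatosis). For 6 samples a pellet under the skin had delivered 4-HPAA (4-hydroxyphenylacetic acid), a microbial product of plant phenols, and the other 6 came from the scaffold control. Diet and obesity were thus shared by both groups, livers were flushed with saline and frozen after 6 weeks of pellet treatment, and age and sex are not stated in the labels. The comparison asks whether the interferon genes of steatotic liver differ with the compound. Replicates are numbered 1 to 6 in each group with no word on whether each is a separate mouse. The p-values therefore measure the spread between samples, which are called livers here.

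Type I interferons act through the receptor chains Ifnar1 and Ifnar2 and the kinases Jak1 and Tyk2, which activate a transcription factor complex that contains Stat2 and Irf9. That complex binds the interferon-stimulated response element (ISRE) in the promoters of target genes such as the Ifit genes and Isg15. Interferon-gamma acts through its own receptor, and its signal reaches the gamma-activated site (GAS) of genes such as Irf1. In liver, hepatocytes and resident immune cells both respond to these cytokines, and a low level of many interferon genes is kept up without infection.

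The promoters show which of these elements each gene carries. RefSeq promoter windows on GRCm38.p6, which reach from 250 bases before to 50 bases after the start of transcription, were available for 8 of the 9 genes (not for Usp18) and were searched on both strands for the ISRE core (GAAA, any 2 letters, GAAA) and the GAS core (TTC, any 3 letters, GAA). The ISRE core was found for 6 of the 8 genes, against 3.44% of all 32851 windows and 3.81% of 10433 measured genes with a window. Other interferon genes shared it: 8 of 10 further interferon-gamma inducible GTPases and 22 of 48 further type I effectors with a window. The GAS core was found for 2 of the 8, Irf1 and Igtp, against 8.3% of all windows and 8.41% of the measured genes. It was also found for 5 of the 10 further GTPases. Irf1 has 2 windows, of which 1 held the match. Neither core was found in the window of Irf7. The stretches around these matches are printed below. They were cut around a match, so their likeness at the match follows from that choice. Irf7, without a match, and Usp18, without a window, are not shown. Capitals mark the ISRE core (overlapping copies run together), and in Irf1 the GAS core.
Isg15, minus strand, chr4:156200845-156200926: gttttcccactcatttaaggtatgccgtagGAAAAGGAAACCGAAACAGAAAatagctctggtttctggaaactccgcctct
Ifit1, plus strand, chr19:34640755-34640843: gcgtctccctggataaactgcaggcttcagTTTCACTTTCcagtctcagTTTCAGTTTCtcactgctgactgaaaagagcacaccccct
Ifit3, plus strand, chr19:34583343-34583446: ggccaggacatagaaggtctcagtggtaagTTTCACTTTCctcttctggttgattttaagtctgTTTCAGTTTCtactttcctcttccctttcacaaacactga
Stat2, plus strand, chr10:128270248-128270315: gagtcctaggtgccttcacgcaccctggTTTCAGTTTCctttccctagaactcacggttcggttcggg
Irgm1, minus strand, chr11:48871405-48871480: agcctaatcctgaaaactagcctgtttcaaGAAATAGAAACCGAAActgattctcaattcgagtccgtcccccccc
Igtp, plus strand, chr11:58199492-58199561: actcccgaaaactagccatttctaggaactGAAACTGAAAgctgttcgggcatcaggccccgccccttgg
Irf1, plus strand, chr11:53769894-53769962: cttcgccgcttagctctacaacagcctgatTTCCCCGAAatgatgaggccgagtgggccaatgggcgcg
Ifit1 and Ifit3 carried the same pair of ISRE letters, TTTCACTTTC and then TTTCAGTTTC, ahead of their starts. Isg15 had 3 overlapping copies between 78 and 57 bases before its start, and Irgm1 had 2 between 30 and 15 bases before its own. A match describes the letters of the window only and is not a measured binding site.

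Across the whole table, the deposited values are normalised read counts that summed to between 22869813 and 25255447 per library. 4-HPAA replicate 3 stood apart from the other livers along the second principal component, at −56.4 against −7.52 to 17.0 for the others. Acute phase genes were on the higher side in 4-HPAA livers, with a median log2 difference (4-HPAA minus control) of 0.57 over 15 genes, and stellate cell markers on the lower side, at −0.59 over 8 genes. Hepatocyte markers were abundant throughout, with a summed value of 2208701 to 2855272 in 4-HPAA livers and 2572701 to 3082877 in control livers over 9 of 10 genes. Alb made up most of these sums, at 1258013 to 1866030 in 4-HPAA livers and 1735801 to 2091337 in control livers. The median log2 difference of these 9 hepatocyte markers was 0.07, with 6 positive and 3 negative.

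None of the 9 interferon genes changed with 4-HPAA beyond the spread between livers. Their log2 differences ran from −0.28 for Ifit3 to 0.27 for Stat2, with 5 positive and 4 negative differences and a median of 0.15, against a median of −0.000922 over all genes tested. By limma with Benjamini-Hochberg adjustment over all 12720 genes, 0 of the 9 had an adjusted p under 0.05, where the share of all genes called was 0%, and the smallest adjusted p was 0.359. At an unadjusted p under 0.05 the count was also 0 of 9, against 14.8% of all genes tested (1886), or 7.26% higher and 7.56% lower. That unadjusted count depended on the setting: it was 2 of 9 with array weights, 2 of 9 with a replicate block, and 0 to 3 of 9 with 1 library left out, the 3 without control replicate 6. Stat2 and Irgm1 were under 0.05 unadjusted in 4 of the 22 alternatives each, Irf7 in 3, and Ifit3 and Usp18 in 1 each. With array weights, a replicate block or 1 library left out, the unadjusted share of all genes was not taken. These counts therefore have no background beside them. The exact permutation test of each gene over every split of the 12 livers into groups of 6, two-sided, likewise called 0 of 9 at an unadjusted p under 0.05, against 14.3% of all genes. The count of the 9 genes with an adjusted p under 0.05 also stayed at 0 where limma was run with array weights (1.09% of all genes called), with a replicate block (0.0865%), without 4-HPAA replicate 4 (1.52%) or without control replicate 1 (0.0394%). The 95% intervals of the 9 differences lay between −0.60 and 0.61, so that a change of any of these genes beyond 1.53-fold upward or below 0.66 of the control level falls outside its interval. Because whole liver was sequenced, fewer cells that express a gene and less RNA of it per cell cannot be told apart.

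**Figure D1:**
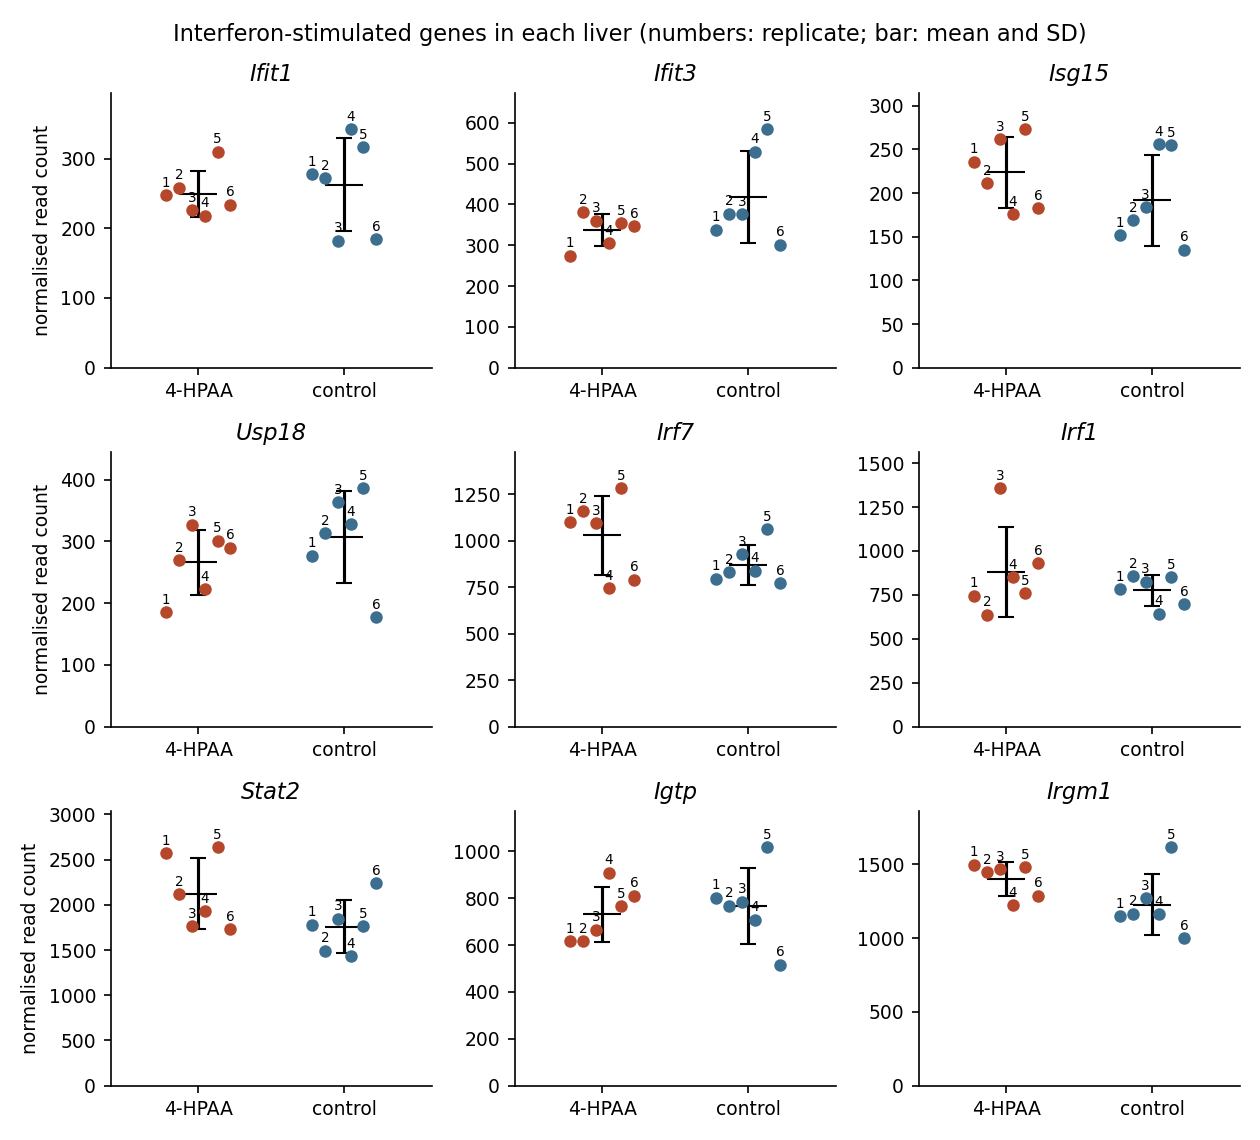
Normalised read count (vertical axis, from 0) of each of the 9 interferon genes in each liver, 4-HPAA left and control right; points are livers with their replicate number, the horizontal bar is the mean and the whisker the SD of 6 livers. The groups overlap in all 9 panels, and control replicates 5 and 6 often sit at the top and bottom of the control group.

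**Figure D2:**
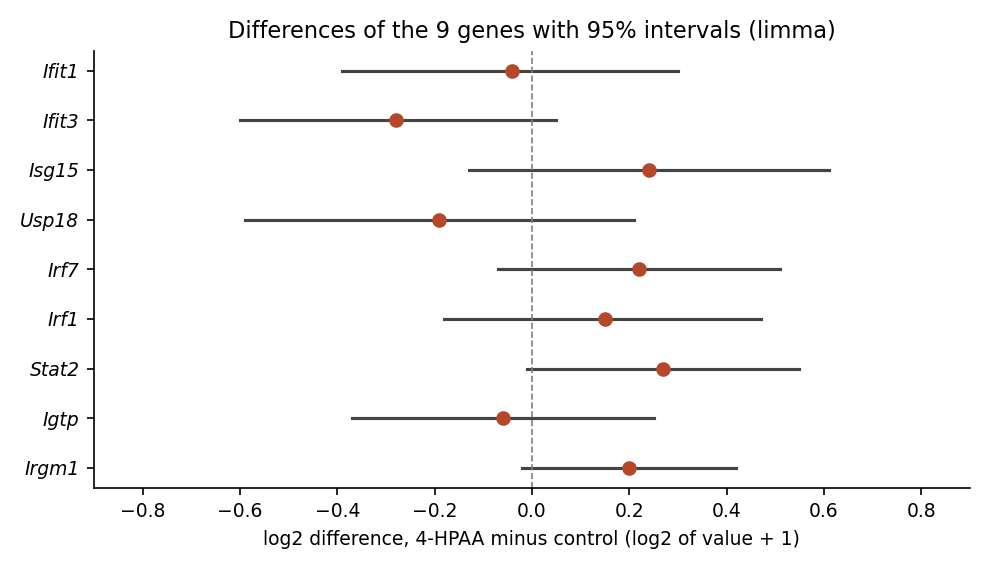
Log2 difference (4-HPAA minus control, on the log2 of value + 1 scale) of the 9 interferon genes, points with 95% intervals from limma over 6 livers a group. All 9 intervals include 0; the outermost bounds are −0.60 for Ifit3 and 0.61 for Isg15.

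Among the effectors, Ifit1, whose protein binds viral RNA that lacks the host's cap methylation, was measured at 247, 258, 226, 218, 310 and 234 in 4-HPAA livers and at 278, 272, 182, 342, 316 and 184 in control livers (replicates 1 to 6). The 4-HPAA values all lay inside the control range. The log2 difference was −0.04 ± 0.16 (SE; limma, adjusted p = 0.925). Ifit1 lies on chromosome 19, 34640871 to 34650009, plus strand. Positions here and below are of the GENCODE gene on GRCm38.

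Ifit3, whose protein partners other Ifit proteins, was measured at 274, 381, 360, 305, 354 and 347 in 4-HPAA livers and at 338, 377, 376, 529, 584 and 301 in control livers. Control replicates 4 and 5 were the highest of all 12 livers and stood above every 4-HPAA liver, while the other 4 control livers fell among the 4-HPAA values. The log2 difference was −0.28 ± 0.15 (limma, adjusted p = 0.419), with 0 of 6 4-HPAA livers above the control mean of 417.5. Without control replicate 5 the difference was −0.17. The close copy Ifit3b lies in the same gene cluster and could share reads with it; Ifit3b was measured at 58 to 78 in 4-HPAA livers and 62 to 115 in control livers. Ifit3 lies on chromosome 19, 34583531 to 34588731, plus strand.

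Isg15, a small ubiquitin-like protein that is joined to other proteins, was measured at 236, 211, 262, 176, 273 and 183 in 4-HPAA livers and at 152, 169, 184, 256, 255 and 135 in control livers. The groups overlapped, with control replicates 4 and 5 below 4-HPAA replicates 3 and 5 and above the other 4-HPAA livers. The log2 difference was 0.24 ± 0.17 (limma, adjusted p = 0.549), with a 95% interval from −0.13 to 0.61, the one that reached highest of the 9. Without control replicate 6 the difference was 0.15. Isg15 lies on chromosome 4, 156199424 to 156200818, minus strand.

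Usp18, the protease that removes Isg15 from proteins and also restrains the type I receptor, was measured at 185, 270, 327, 223, 301 and 290 in 4-HPAA livers and at 277, 313, 363, 328, 386 and 177 in control livers. Its lowest livers were control replicate 6 and 4-HPAA replicate 1. The log2 difference was −0.19 ± 0.19 (limma, adjusted p = 0.673). It was −0.09 without 4-HPAA replicate 1 and −0.34 without control replicate 6. Isg15 and its protease thus had point estimates of opposite sign, and both intervals include 0. Exons of Gm44148 overlap Usp18 on the other strand, and without a statement that counting used strand their reads cannot be told apart. Usp18 lies on chromosome 6, 121245906 to 121270917, plus strand.

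Among the transcription factors, Irf7, which drives interferon-alpha genes, was measured at 1101, 1160, 1094, 745, 1283 and 791 in 4-HPAA livers and at 796, 833, 930, 840, 1062 and 771 in control livers. 4-HPAA replicates 1, 2, 3 and 5 exceeded every control liver, and replicates 4 and 6 lay at the low end of all 12. The same 2 livers had the lowest summed acute phase level of their group, 492076 and 520623 against 673356 to 946318 in the other 4-HPAA livers and 451447 to 507633 in control livers; its part in the Irf7 values was not tested. The log2 difference of Irf7 was 0.22 ± 0.13 (limma, adjusted p = 0.467). Exons of Phrf1 overlap Irf7 on the other strand, and without a statement that counting used strand their reads cannot be told apart. Irf7 lies on chromosome 7, 141262706 to 141266481, minus strand.

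Stat2, the subunit that gives the type I complex its activating domain, was measured at 2572, 2118, 1762, 1929, 2637 and 1734 in 4-HPAA livers and at 1779, 1493, 1849, 1429, 1764 and 2243 in control livers. It had the smallest p of the 9 genes, with a log2 difference of 0.27 ± 0.13 and a 95% interval from −0.01 to 0.55 (limma, adjusted p = 0.359, unadjusted p = 0.0599). 4-HPAA replicates 1 and 5 were above all control livers, and control replicate 6 was above the remaining 4 4-HPAA livers. Stat2 lies on chromosome 10, 128270559 to 128292849, plus strand.

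Irf1, a transcription factor that interferon-gamma induces through its GAS, was measured at 746, 638, 1357, 852, 759 and 932 in 4-HPAA livers and at 783, 858, 825, 644, 850 and 698 in control livers. The value of 1357 belongs to 4-HPAA replicate 3, the liver that stood apart over all genes. With it the log2 difference was 0.15 ± 0.15 (limma, adjusted p = 0.693). Without that library the difference was 0.01 ± 0.10. Exons of Gm17334 overlap Irf1 on the other strand, with the same limit on reads as for Irf7. Irf1 lies on chromosome 11, 53770014 to 53778374, plus strand.

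Igtp and Irgm1 belong to the immunity-related GTPases, which interferon-gamma induces strongly and which act on the vacuoles of intracellular microbes. Igtp was measured at 616, 616, 666, 910, 767 and 811 in 4-HPAA livers and at 803, 768, 785, 709, 1018 and 516 in control livers, a log2 difference of −0.06 ± 0.14 (limma, adjusted p = 0.893). Within the 4-HPAA group replicates 4 and 6 were its highest livers, while they were the lowest for Irf7 and Irgm1. Exons annotated to Igtp also overlap those of its neighbour Irgm2, another GTPase of the family, on the same strand, so the division of reads between them is uncertain. Igtp lies on chromosome 11, 58199556 to 58207591, plus strand.

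Irgm1 was measured at 1496, 1448, 1465, 1224, 1478 and 1287 in 4-HPAA livers and at 1146, 1166, 1269, 1164, 1615 and 1001 in control livers. All 6 4-HPAA livers were above the control median of 1165, but control replicate 5 was the highest of the 12. The log2 difference was 0.20 ± 0.10, with a 95% interval from −0.02 to 0.42 (limma, adjusted p = 0.377). Irgm1 lies on chromosome 11, 48861968 to 48871683, minus strand.

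Set on a common scale per kilobase of transcript, the genes ranked from Irgm1 at the top to Ifit1 at the bottom in both groups. Irgm1 averaged 620 ± 50.7 normalised reads per kilobase in 4-HPAA livers and 543 ± 92.4 in control livers (SD, n = 6 each). Ifit1 averaged 93.7 ± 12.5 in 4-HPAA livers and 98.8 ± 25.1 in control livers. In between, the order in 4-HPAA livers was Irf7 (537), Stat2 (484), Irf1 (412), Igtp (362), Isg15 (296), Ifit3 (193) and Usp18 (150), and control livers differed from it only in having Igtp (379) above Irf1 (363). From Irgm1 down to Igtp in 4-HPAA livers, and from Irgm1 down to Irf1 in control livers, no neighbours in this order were separated by more than the larger of their SDs. Below that, each gap exceeded it except between Isg15 and Ifit3 in control livers (254 and 239).

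The spread between livers was itself uneven. Over control livers, the coefficient of variation was 25.4% for Ifit1, 27.0% for Ifit3, 27.1% for Isg15 and 24.2% for Usp18, against a median of 12.5% over all genes tested. In 4-HPAA livers the same genes stood at 13.4%, 11.8%, 18.1% and 19.9%, against a median of 17.3% over all genes tested. Irf7 and Irf1 varied the other way, at 20.8% and 28.8% in 4-HPAA livers and 12.3% and 11.3% in control livers. The Irf1 figure includes 4-HPAA replicate 3, at 1357 against 638 to 932 in the other 4-HPAA livers. Stat2, Igtp and Irgm1 stood at 18.6%, 16.2% and 8.18% in 4-HPAA livers and 16.5%, 21.1% and 17% in control livers. These spreads are given as a description, and their difference between groups was not tested.

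Much of this spread followed single livers. To place each liver, the log2 value of each gene was centred on its mean over the 12 livers, divided by its SD, and averaged over the 9 genes. The score was 1.03 in control replicate 5 and −1.20 in control replicate 6, the highest and lowest of the 12, while 4-HPAA livers lay between −0.37 and 0.73. Within the control group, replicate 5 had the highest value for 5 of the 9 genes and replicate 6 the lowest for 6 of the 9. Over all genes tested, replicate 5 was the highest control liver for 16.7% and replicate 6 the lowest for 21.6%. Of 62 further type I interferon effector genes, 32 (51.6%) were highest in control replicate 5 and 16 (25.8%) lowest in control replicate 6, the second share being near that of all genes. The other interferon lists differed in this. Control replicate 5 was the highest control liver for 7 of 19 GTPases (36.8%) and 6 of 17 sensors (35.3%), against the 16.7% of all genes. The same held for 3 of 8 genes that restrain the pathway (37.5%) and 4 of 11 other interferon-gamma targets (36.4%). The counts were 1 of 11 receptor, kinase and STAT genes (9.09%), 0 of 9 regulatory factors and 0 of 5 genes of ISG15 conjugation. Within the 4-HPAA group, replicate 5 was the highest for 4 of the 9 genes.

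**Figure D3:**
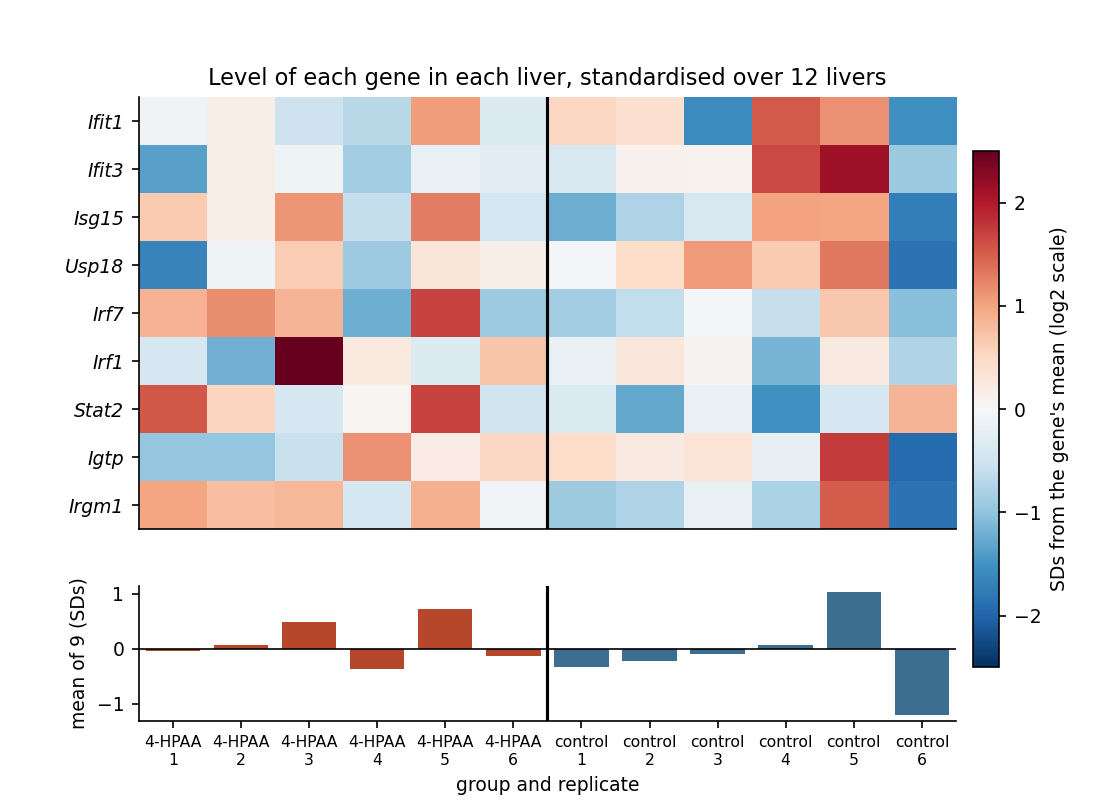
Top, level of each of the 9 genes in each of the 12 livers (4-HPAA left of the line, control right), as SDs from the gene's mean over 12 livers on the log2 scale; red is above and blue below the mean. Bottom, the mean of the 9 in each liver (bars, in SDs): control replicates 5 and 6, at 1.03 and −1.20, are the extremes.

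The 9 genes did not vary as 1 block. Over the 12 livers the median Pearson r of the 36 pairs was 0.30, with 28 pairs above 0, against a median of −0.00 over all pairs of tested genes. The closest pairs were Irf7 with Irgm1 (r = 0.84), Isg15 with Irgm1 (0.80), Ifit3 with Usp18 (0.78) and Isg15 with Irf7 (0.76). Stat2 ran against Ifit3 and Usp18, with r = −0.58 for each. With each group centred on its own mean, the median was 0.40 and these pairs stood at 0.80, 0.76, 0.76, 0.72, −0.45 and −0.53. The values of a pair come from the same 12 libraries and share their depth and composition, so these r are descriptions.

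With predicted and unnamed genes left out, the other tested gene most like the mean of the 9 over the 12 livers was Xaf1 (r = 0.94). Xaf1 is itself an interferon-induced gene, which promotes cell death. It was measured at 204, 207, 218, 186, 239 and 193 in 4-HPAA livers and at 203, 199, 222, 203, 257 and 169 in control livers, with control replicates 5 and 6 again its extremes. Next came Tdrd7 (0.89), an interferon-induced protein with Tudor domains, Pyroxd2 (0.88), H2-D1 (0.88), which presents peptides to T cells as a class I histocompatibility molecule, Pip5k1c (0.87), Snrpn (0.87), Tpm3 (0.86) and Gpr107 (0.86). Of these 8 genes, 2 (Xaf1 and Tdrd7) were on the wider lists of interferon genes described next, which hold 139 of the 12720 genes tested. Pyroxd2, H2-D1, Pip5k1c, Snrpn, Tpm3 and Gpr107 were not on those lists. The 8 were picked as the highest r among all these genes, and each r rests on 12 livers. How high r would reach by chance was not tested. Over the 62 type I effectors the median r with the mean of the 9 was 0.37, against −0.01 over all genes tested and −0.12 over 19 interferon-gamma inducible GTPases other than Igtp and Irgm1.

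Elsewhere in the interferon system, 2 genes separated the groups without overlap, and none passed the adjusted threshold. Lists were written for effectors, GTPases, receptors and kinases, regulatory factors, sensors, ISG15 conjugation, brakes and other interferon-gamma targets, and 139 different genes of these lists were tested. Their median log2 difference was 0.00684, with 70 positive and 69 negative differences, and 0 had an adjusted p under 0.05 (limma; smallest 0.145). At an unadjusted p under 0.05 there were 13 higher genes and 11 lower ones, 17.3% in all, near the 14.8% of all genes tested. The groups did not overlap for 2 of the 139 genes, Psmb8 and Myd88, both higher in 4-HPAA livers. Over all genes 39 of 12720 (0.307%) did not overlap on the higher side, a smaller share. On the lower side the count was 0 of the 139, against 0.354% of all genes. For the 9 genes the count was 0.

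**Figure D4:**
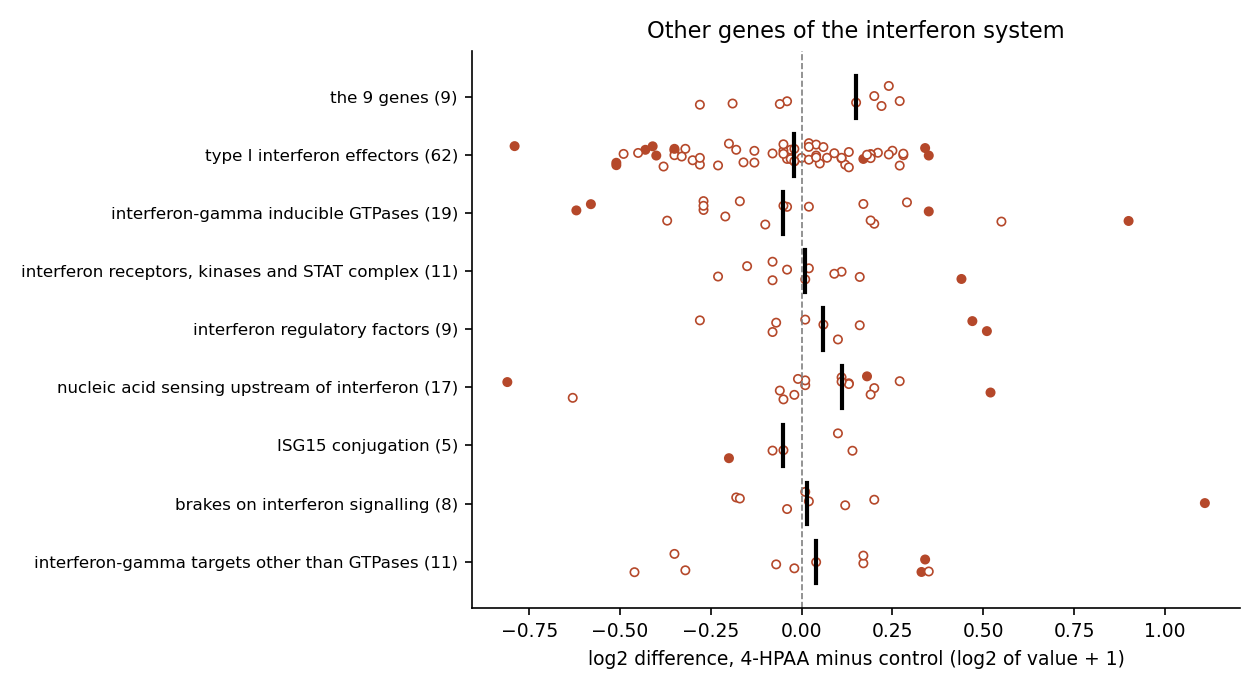
Log2 difference (4-HPAA minus control, log2 of value + 1) of each tested gene in the 9-gene set and in 8 further lists; numbers in brackets are genes tested, filled points have an unadjusted limma p under 0.05, vertical bars are list medians. The medians lie between −0.05 and 0.15, and no gene had an adjusted p under 0.05.

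The 62 type I effectors had a median of −0.02, with 28 positive and 34 negative differences. At an unadjusted p under 0.05 there were 3 higher and 7 lower genes. Together they were 16.1% of the list, near the 14.8% of all genes tested (7.26% higher and 7.56% lower). The smallest p belonged to Ifi27l2a, a small membrane protein of the interferon-alpha-inducible p27 family, which averaged 96.7 ± 24.4 in 4-HPAA livers and 170.0 ± 50.4 in control livers (SD, n = 6 each), a log2 difference of −0.79 ± 0.20 (limma, adjusted p = 0.148). Sp100, a protein of PML nuclear bodies, differed by −0.41 ± 0.13, while the antiviral GTPase Mx2 (0.34 ± 0.12) and the helicase-domain coactivator Helz2 (0.35 ± 0.12) were on the higher side. Their adjusted p were 0.199, 0.206 and 0.211 (limma).

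The 19 GTPases tested besides Igtp and Irgm1 had a median of −0.05, with 2 higher and 2 lower at an unadjusted p under 0.05. That was 21.1% of this short list, against 14.8% of all genes tested. Gvin1, a very large interferon-inducible GTPase, was at 0.90 ± 0.30 with low values, 17 to 42 in 4-HPAA livers and 9 to 26 in control livers. Ifi47, of the same family as Igtp, was at 0.35 ± 0.12, and the guanylate-binding proteins Gbp5 and Gbp2 at −0.62 ± 0.24 and −0.58 ± 0.23 (limma, adjusted p = 0.206 to 0.268 for the 4 genes). Several genes of this list have near-identical copies, so reads may be divided among them.

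Upstream of the 9 genes, the receptor, kinase and STAT list had a median of 0.01 over 11 genes. The receptor chain Ifnar1 was at 0.11 ± 0.07, the receptor chain Ifngr2 at −0.23 ± 0.13 and the kinase Jak1 at 0.16 ± 0.08. Stat3, which is better known for carrying IL-6 signals, averaged 3092 ± 704 in 4-HPAA livers and 2236 ± 240 in control livers, a log2 difference of 0.44 ± 0.14 (limma, adjusted p = 0.2).

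The regulatory factors other than Irf1 and Irf7 had a median of 0.06 over 9 genes. Irf5, a factor of myeloid cells, was at 0.47 ± 0.19 (limma, adjusted p = 0.269), while Irf2 was at 0.16 ± 0.10 and its binding protein Irf2bp2 at −0.28 ± 0.19.

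Sensors of foreign nucleic acid and their adaptors had a median of 0.11 over 17 genes. Ikbke, a kinase that phosphorylates Irf3 and Irf7, was measured at 799, 706, 936, 565, 988 and 641 in 4-HPAA livers and at 499, 492, 468, 542, 557 and 636 in control livers. All 6 4-HPAA livers were above the control mean of 532, with a log2 difference of 0.52 ± 0.13 (limma, adjusted p = 0.148). The adaptor Myd88 was measured at 386 to 472 in 4-HPAA livers and 328 to 381 in control livers, a log2 difference of 0.18 ± 0.07 (limma, adjusted p = 0.291). On the lower side, the DNA sensor Cgas was measured at 2 to 17 in 4-HPAA livers and 14 to 20 in control livers, a log2 difference of −0.81 ± 0.37 (limma, adjusted p = 0.331). The RNA sensor Tlr7 was measured at 13 to 27 in 4-HPAA livers and 12 to 52 in control livers, a log2 difference of −0.63 ± 0.32 (limma, adjusted p = 0.377). Values this low, like those of Gvin1, carry a large counting error.

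In the pathway that attaches Isg15, the conjugating enzyme Ube2l6 was at −0.20 ± 0.07 (limma, adjusted p = 0.236), the activating enzyme Uba7 at 0.14 ± 0.10, and the ligases Herc6 and Trim25 at 0.10 ± 0.20 and −0.08 ± 0.08. Of the genes that restrain the pathway, with a median of 0.02 over 8, Socs3 averaged 424.8 ± 165 in 4-HPAA livers and 205.3 ± 117 in control livers, a log2 difference of 1.11 ± 0.37 (limma, adjusted p = 0.206). Socs3 is induced by Stat3. The SUMO ligase Pias4 was at 0.20 ± 0.12, and the phosphatases Ptpn6 and Ptpn1 at −0.18 ± 0.09 and 0.12 ± 0.12.

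Other interferon-gamma targets had a median of 0.04 over 11 genes. Psmb8, a subunit of the immunoproteasome, was measured at 1122, 957, 1258, 933, 1051 and 921 in 4-HPAA livers and at 825, 799, 800, 820, 817 and 890 in control livers. Every 4-HPAA liver exceeded every control liver, with a log2 difference of 0.33 ± 0.08 (limma, adjusted p = 0.145). Nlrc5, the activator of class I histocompatibility genes, was at 0.34 ± 0.11, the adhesion molecule Icam1 at 0.35 ± 0.17 and the chemokine Cxcl9 at −0.46 ± 0.29.

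Markers of immune cells were measured at very different levels. The 9 interferon ligand genes on the list matched no row and were not analysed here. Of the T and NK cell markers, 6 of 16 had a row, with a summed value of 115 to 216 in 4-HPAA livers and 45 to 132 in control livers, and Cd4 made up most of the difference between these sums. Cd4, the co-receptor of helper T cells, was at 38 to 178 in 4-HPAA livers and 13 to 62 in control livers, a log2 difference of 1.69 ± 0.41 (limma, adjusted p = 0.142). The other markers of this list that could be tested, Ccl5 and Klrk1, were at −0.76 ± 0.57 and −0.21 ± 0.44. Cd3e, a part of the T cell receptor complex, was at 3 to 17 in 4-HPAA livers and 2 to 16 in control livers. Of the plasmacytoid dendritic cell markers, 2 of 6 had a row, and Siglech, the more specific one, was at 7 to 18 in 4-HPAA livers and 10 to 21 in control livers. All 16 markers of Kupffer cells and macrophages had a row, with a summed value of 6237 to 10118 in 4-HPAA livers and 4453 to 14588 in control livers. Of the myeloid markers, Cx3cr1 was lowest at −1.18 ± 0.43, then the dendritic cell markers Itgax and Flt3 at −1.02 ± 0.34 and −0.91 ± 0.29 (limma, adjusted p = 0.2 to 0.236). Flt3 had low values, 3 to 11 in 4-HPAA livers and 9 to 15 in control livers. The macrophage list had a median of −0.05, with 5 positive and 11 negative differences and Mpeg1 highest at 0.43. The 5 conventional dendritic cell markers had a median of −0.13, all negative, with Zbtb46 nearest 0 at −0.03. The part of these markers in the interferon values was not tested. Control replicates 5 and 6, the extremes of the interferon score, summed to 10336 and 14588 for the macrophage list. Control replicate 4 (score 0.07) and 4-HPAA replicate 5 (score 0.73) summed to 10918 and 10118. Marco alone was at 1967 in control replicate 6, against 30 to 195 in the other control livers and 78 to 277 in 4-HPAA livers.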

How the data were processed

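RNA of 12 liver samples was purified on RNeasy columns, made into directional mRNA libraries and sequenced on a NovaSeq instrument, per the labels' protocols. FastQC 0.11.9, cutadapt, STAR, HTSeq, DESeq2 1.28.1, edgeR and the build GRCm38 are named in the submitters' processing notes; no role, order, annotation release or strand setting is stated. Values in the authors' table are whole numbers. They were handled as a score, taken to be read counts that the authors scaled per library and rounded, because the columns have nearly equal size factors by the median-of-ratio method (1.003 to 1.009). Raw depth is thus not known exactly, and values near 10 carry large counting error. No column of other samples was present. GENCODE release 21 for mouse named 13203 of the 13267 rows; lengths per kilobase are those of the longest principal transcript.

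Limma 3.58.1 in R 4.3.3 (trend and robust settings, no covariate) was fitted to log2(value + 1) for the 12720 genes that reached 10 in 6 or more libraries, with Benjamini-Hochberg adjustment over all of them and a threshold of 0.05. Differences are on that scale, which understates changes of low genes. The fit was tested on simulated data in which the planted changes were larger than the differences of the 9 genes. That test therefore does not show the power of the fit for differences of their size. The members and lists were chosen with earlier results of these data known. The genes named are the 9 members, up to 4 of smallest p from each wider list, and the 8 genes (predicted genes left out) with the highest Pearson r to the members' mean; Ifit3b and the cell type markers were added after their values were seen, and some genes that the rule names are not reported here. Of 30 pairs of libraries within a group, none agreed within sampling noise (chi-square per gene from 18.6 to 125). Promoter sequences are from RefSeq. Alternatives were other scalings, filters, pseudocounts and tests, array weights, a replicate block and each library left out. Figures were drawn with matplotlib 3.10.9.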

Additional observations from a re-analysis of the deposited data

Results flagged for a closer look

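Among the 49 genes named, the highest or lowest liver of a group stood far from the other 5 in 6 of 98 groups; chance flags about 1 group in 20 by this rule, and none of the 9 interferon genes was among them. In 4-HPAA replicate 3, Myd88 was at 472 against 386 to 413 in the other 4-HPAA livers, Ptpn6 at 556 against 412 to 445, and Herc6 at 177 against 362 to 471. In 4-HPAA replicate 4, Cxcl9 was at 459 against 109 to 199. Among control livers, Stat3 was at 2696 in replicate 3 against 2060 to 2271, and Psmb8 at 890 in replicate 6 against 799 to 825.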

How the results depend on the processing

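Under 22 alternatives, 12 of them leaving out 1 library, the count of the 9 genes with an adjusted p under 0.05 stayed at 0; the smallest adjusted p was 0.0878, for Stat2 with array weights. Their median log2 difference ran from −0.00446 (array weights) to 0.18. Signs turned in 4 cases: Irf1 to −0.00446 with array weights, Ifit1 to 0.04 without control replicate 4 and 0.02 without control replicate 5, and Igtp to 0.03 without control replicate 5. With 1 library left out the log2 difference ran from −0.14 to 0.04 for Ifit1, −0.36 to −0.17 for Ifit3, 0.15 to 0.33 for Isg15, −0.34 to −0.09 for Usp18, 0.15 to 0.31 for Irf7, 0.01 to 0.23 for Irf1, 0.20 to 0.34 for Stat2, −0.16 to 0.03 for Igtp and 0.15 to 0.28 for Irgm1. The count of the 9 genes at an unadjusted p under 0.05 was 2 with array weights, 2 with a replicate block and 0 to 3 with 1 library left out. The unadjusted share of all genes was not taken in these settings. At an adjusted p under 0.05, the count over all genes was 139 with array weights and 11 with a replicate block. It was 193 without 4-HPAA replicate 4 and 5 without control replicate 1, and 0 to 193 with 1 library left out. Of the wider interferon lists, 2 genes passed with array weights, Psmb8 and Ikbke (adjusted p = 0.0468 each), and 4 without 4-HPAA replicate 4, Stat3 (0.0304), Ikbke (0.0334), Ifi27l2a (0.0426) and Helz2 (0.0441), so 0 to 4 with 1 library left out; the cause was not tested. The labels do not say that equal numbers mark paired mice, and deviations of same-numbered livers correlated at −0.18 to 0.28, so the replicate block is only an alternative. Counting error limits the genes near a value of 10.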
